A study of Mus musculus with 4 samples.

Results

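Havcr2, Lag3, Tigit, Ctla4, Cd160, Cd244, Cd101 and Cd200r1 encode inhibitory or immunoregulatory receptors other than PD-1, and Entpd1 encodes the ectonucleotidase CD39, which is often measured beside them on tumour-infiltrating T cells. The 9 genes were chosen by symbol from the 27998 genes of the count tables and were each found in 1 row, and Pdcd1, which encodes PD-1, was followed as their companion. The study profiled single immune cells from B16-GP33 tumours, a mouse melanoma line that carries the GP33 epitope of lymphocytic choriomeningitis virus, grown under the skin of C57BL/6 mice. Each of 4 libraries came from mice given 1 of 4 treatments: anti-PD-1 and anti-PSGL-1 together (combination), anti-PD-1, anti-PSGL-1, or control IgG. PSGL-1 is an adhesion molecule of leukocytes that also restrains T cell responses. All mice received 200 µg of each named antibody on days 8, 10 and 12 after tumour injection, and tumours were taken on day 18. Live CD45.2+ cells, sorted as negative for propidium iodide, entered droplet capture, a gate for leukocytes. The sources used here do not say how many animals were pooled into a library. Because each treatment had 1 library, differences between treatments have no replicate check, and every interval between libraries covers counting error only.

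The receptors named here act as brakes at different points. CTLA-4 takes the ligands CD80 and CD86 away from the costimulatory receptor CD28, LAG-3 binds MHC class II and other ligands, TIGIT competes with CD226 for the poliovirus receptor, and TIM-3, encoded by Havcr2, binds ligands that include galectin-9 and CEACAM1. CD160 and CD244 are shared by T and NK cells and bind HVEM and CD48, CD101 and CD200R1 are shared with myeloid cells, and CD39 breaks down extracellular ATP on the way to adenosine. In chronic infection and in tumours, several of these receptors are found together with PD-1 on CD8 T cells that have been stimulated for a long time, a state known as exhaustion, while Ctla4 is also a constitutive gene of regulatory T cells.

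RefSeq promoter windows of GRCm38.p6, holding the 250 bases before a gene's start, were at hand for 7 of the 9 genes and for Pdcd1. Those of 3 genes are shown because Cd244 had the largest CD8 difference between anti-PD-1 and IgG described further on, Havcr2 had a steep gradient across the CD8 clusters, and Pdcd1 is the companion gene. Capitals mark matches, on either strand, to GGAAA (the core bound by NFAT), TGACTCA (the AP-1 site) or TGTGGT (the Runx site), and neighbouring GGAAA matches in Pdcd1 abut without overlap. All are written 5′ to 3′ along the gene's own strand. The Cd244 window, chr1:171558943-171559192 on the plus strand, held 1 AP-1 and 1 NFAT match. The Havcr2 window, chr11:46454681-46454930 on the plus strand, held 1 Runx match. The Pdcd1 window, chr1:94052554-94052803 on the minus strand, held 2 NFAT matches.
Cd244: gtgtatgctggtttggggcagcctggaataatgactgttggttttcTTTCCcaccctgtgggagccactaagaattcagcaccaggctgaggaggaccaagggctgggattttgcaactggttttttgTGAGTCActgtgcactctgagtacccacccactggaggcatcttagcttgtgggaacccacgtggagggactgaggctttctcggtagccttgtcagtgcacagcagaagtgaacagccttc
Havcr2: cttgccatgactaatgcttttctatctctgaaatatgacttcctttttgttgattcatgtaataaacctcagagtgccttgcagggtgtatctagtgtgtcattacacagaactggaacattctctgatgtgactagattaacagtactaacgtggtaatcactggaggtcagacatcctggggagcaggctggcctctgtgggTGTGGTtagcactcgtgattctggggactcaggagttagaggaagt
Pdcd1: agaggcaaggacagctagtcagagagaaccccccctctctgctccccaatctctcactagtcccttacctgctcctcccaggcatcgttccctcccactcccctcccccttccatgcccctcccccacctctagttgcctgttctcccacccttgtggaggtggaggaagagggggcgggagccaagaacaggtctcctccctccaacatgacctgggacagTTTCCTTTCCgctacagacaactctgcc
Of 32851 promoter windows of this length, 55.6% held GGAAA, 14.0% held TGTGGT and 4.46% held TGACTCA, so a match to the NFAT core alone is common. These matches describe letters and not bound sites.

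The deposited tables held 4614 barcodes in the combination library, 5621 in the anti-PD-1 library, 7302 in the anti-PSGL-1 library and 9733 in the IgG library, with 40913129 to 53303195 unique molecular identifiers (UMIs, which count each captured RNA molecule once) per library. After filtering and removal of likely doublets, 4228, 5019, 6492 and 8748 cells remained in the same order, and their median depth was 8392, 6252, 6164 and 3674.5 UMIs. The IgG cells were thus the shallowest. Pairs of libraries shared 6 to 14 barcodes, or 0.130% to 0.260% of the smaller library. Clusters were built without the 9 genes and Pdcd1 and were named from marker genes. CD8 T-like cells numbered 1685 in the combination library, 1073 with anti-PD-1, 1325 with anti-PSGL-1 and 1329 with IgG. Unnamed clusters held 0.520% to 1.31% of cells in the 3 treated libraries, against 12.8% in the IgG library, and these cells enter no level given here. Of the 1121 such IgG cells, 1110 lay in 1 cluster. In that cluster, over all libraries, 77.5% of cells carried both T cell and myeloid signal and 63.6% had Cd8a or Cd8b1. The effect of leaving them out on ratios to IgG was not tested.

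Of the 4 receptors that meet ligands on antigen-presenting or target cells, Ctla4, Lag3 and Tigit were mainly T cell genes and Havcr2 was shared with dendritic and myeloid cells. Ctla4 stood out for regulatory T-like cells. Levels are given as UMIs of the gene relative to all UMIs of the class, scaled as CPM, so they compare cell classes and libraries for 1 gene and not 1 gene with another. Ctla4 reached 1090 CPM in regulatory T-like cells of the combination library, 1573 with anti-PD-1, 1230 with anti-PSGL-1 and 1305 with IgG. The next class was the conventional CD4 T-like one, at 260, 579, 271 and 356 CPM, and its range did not reach that of the regulatory T-like cells in any library. CD8 T-like cells followed with a mean of 237 CPM ± 34.3 (SD over the 4 libraries), a range that overlapped the conventional CD4 T-like one. Macrophage- and monocyte-like cells had 1.96 to 7.51 CPM.

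Lag3 was highest in regulatory T-like and CD8 T-like cells, whose ranges overlapped. Regulatory T-like cells had 328 CPM of Lag3 in the combination library, 476 with anti-PD-1, 160 with anti-PSGL-1 and 148 with IgG. CD8 T-like cells had 336, 303, 164 and 226 CPM. In both classes the libraries with anti-PD-1, alone or combined, held the highest levels. Plasmacytoid dendritic-like cells, a lineage known to express Lag3 in mice, were numerous enough in the IgG library only and had 230 CPM there. Havcr2 spread more widely. cDC1-like cells, which are specialised in cross-presentation, had 111 CPM with anti-PD-1, 132 with anti-PSGL-1 and 127 with IgG, a range that overlapped the 102 to 147 CPM of CD8 T-like cells. The combination library had 44 cDC1-like cells, too few for a level. Macrophage- and monocyte-like cells had 63.2 to 78.4 CPM of Havcr2 and regulatory T-like cells 61.7 to 111 CPM. Tigit was the sparsest of these 4 genes in read numbers, with 100 to 271 UMIs in the CD8 T-like cells of a library. Its mean level was 21.5 CPM ± 5.11 in regulatory T-like, 11.9 ± 2.65 in CD8 T-like and 8.81 ± 2.24 in NK-like cells (SD, 4 libraries each), and the ranges of neighbouring classes overlapped.

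Cd160 and Cd244, the receptors shared with NK cells, had different leading classes. Cd160 averaged 131 CPM ± 20.1 in the clusters grouped as other T cells, 95.6 ± 16.3 in CD8 T-like and 64.1 ± 9.86 in NK-like cells (SD, 4 libraries each). The other T and CD8 T-like ranges overlapped, and the CD8 T-like and NK-like ranges did not. Among the other T clusters, the one led by Klra1, a Ly49 receptor gene, had 163 CPM with anti-PD-1, 176 with anti-PSGL-1 and 137 with IgG. Cd244 was highest in NK-like cells, at 103 CPM in the combination library, 82.2 with anti-PD-1, 98.0 with anti-PSGL-1 and 89.3 with IgG. Macrophage- and monocyte-like cells came next at 47.7 to 69.2 CPM, without overlap. Within them, the monocyte cluster led by Ace and Treml4, genes of the patrolling subset, had 129, 132, 113 and 166 CPM of Cd244, above the NK-like level of the same library in each case. CD8 T-like cells had 16.1 to 41.9 CPM and conventional CD4 T-like cells at most 4.05 CPM.

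Cd101, Cd200r1 and Entpd1 were led by myeloid cells or shared with them. Entpd1 had 470 CPM in neutrophil-like cells of the combination library, 404 with anti-PD-1, 529 with anti-PSGL-1 and 438 with IgG, apart from the macrophage- and monocyte-like range of 101 to 148 CPM. Regulatory T-like cells had 57.2 to 79.3 CPM and CD8 T-like cells 45.0 to 72.4 CPM. Cd101 averaged 33.3 CPM ± 16.4 in neutrophil-like, 20.9 ± 3.47 in conventional CD4 T-like and 14.2 CPM in CD8 T-like cells, where the 4 libraries lay between 13.2 and 14.9 CPM. The neutrophil-like range of Cd101, 19.7 to 57.0 CPM, overlapped the conventional CD4 T-like one and rested on 59 UMIs in all. Macrophage- and monocyte-like cells averaged 1.12 CPM of Cd101. Cd200r1 averaged 40.4 CPM ± 9.33 in regulatory T-like and 39.0 ± 15.9 in cDC2-like cells, the dendritic subset that mainly primes CD4 T cells, with overlapping ranges. Cd200r1 has close relatives in the same gene family, among them Cd200r4, and the sources used here do not say how reads that fit several of them were counted, so its counts are uncertain.

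**Figure D1:**
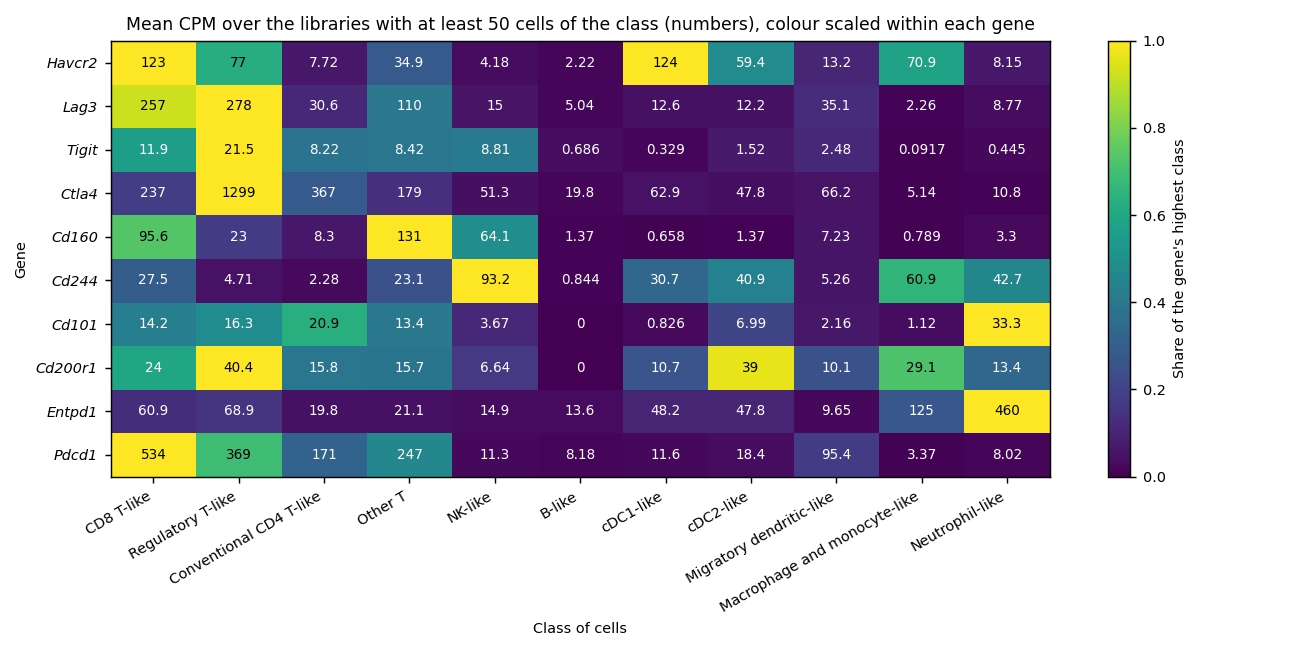
Mean CPM of the 9 genes and Pdcd1 (rows) in 11 classes of cells (columns), over the libraries with at least 50 cells of the class, with colour scaled to the highest class of each gene. Ctla4 peaks in regulatory T-like cells at 1299 CPM, Cd244 in NK-like cells at 93.2 CPM and Entpd1 in neutrophil-like cells at 460 CPM.

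Across treatments, CD8 T-like cells of the 2 libraries with anti-PD-1 held more Havcr2, Lag3, Cd244 and Entpd1 than those with IgG, while anti-PSGL-1 alone left every gene within 1.5-fold of IgG. A gene was counted as past the fold when its CPM differed by 1.5-fold or more and reached 5 CPM in either library. With anti-PD-1, 2 of the 9 genes were past it upward (Cd244 and Entpd1) and 0 downward, where 4.37% of 8686 measured genes were higher and 5.01% lower. With anti-PSGL-1, 0 of 9 were past it in either direction, beside 1.73% higher and 1.33% lower over all genes. The combination against IgG had 2 of 9 higher (again Cd244 and Entpd1) and 0 lower, beside 4.53% and 3.87%. All 3 comparisons share the IgG library. The median log2 ratio of the 9 genes was 0.45 for the combination, 0.42 for anti-PD-1 and 0.10 for anti-PSGL-1, beside medians over all measured genes of 0.03, 0.01 and -0.04.

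Cd244, whose product signals through SLAM-associated adaptors, had 33.8 CPM in CD8 T-like cells of the combination library, 41.9 with anti-PD-1, 18.1 with anti-PSGL-1 and 16.1 with IgG. The first 2 levels stood well above the other 2. Its ratio to IgG was 2.10 (95% interval 1.75 to 2.54) for the combination, 2.60 (2.15 to 3.17) for anti-PD-1 and 1.12 for anti-PSGL-1. Entpd1 had 72.4, 68.0, 58.4 and 45.0 CPM in the same order, with IgG lowest. Its ratios to IgG were 1.61 (1.44 to 1.80), 1.51 (1.34 to 1.71) and 1.30 (1.14 to 1.47). These ratios moved with the makeup of the CD8 T-like class. When 4 of its clusters, those led by Gzmk, by division genes, by Serpine2 and by Tff1, were given the same weight in every library, the Cd244 ratio was 1.45 for the combination and 1.47 for anti-PD-1, and the Entpd1 ratio was 1.31 and 1.21, so neither gene stayed past 1.5-fold. That setting left out the naive-like cluster and the cluster led by Gzmd, each with under 50 cells in at least 1 library. With only the naive-like cluster left out, Entpd1 was also under the fold in both comparisons (1.43 and 1.37) and Cd244 was not (1.87 and 2.37).

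Lag3 had 336 CPM in CD8 T-like cells of the combination library, 303 with anti-PD-1, 164 with anti-PSGL-1 and 226 with IgG, and was the gene of the 9 lowest with anti-PSGL-1 relative to IgG. Its ratio to IgG was 1.49 (1.42 to 1.57) for the combination, 1.34 (1.27 to 1.42) for anti-PD-1 and 0.73 (0.68 to 0.78) for anti-PSGL-1. With clusters weighing the same, these were 1.49, 1.19 and 0.72. Havcr2 had 141 and 147 CPM in the combination and anti-PD-1 libraries and 102 CPM in both the anti-PSGL-1 and IgG libraries. Its ratio to IgG was 1.39 for the combination, 1.45 (1.34 to 1.58) for anti-PD-1 and 1.00 for anti-PSGL-1, and with clusters weighing the same the first 2 were 0.96 and 0.91, below 1. Within clusters Havcr2 went both ways against IgG. In the Serpine2 cluster it was 0.76 times IgG for the combination and 0.72 times for anti-PD-1. In the Gzmk cluster it was 50.2 CPM with the combination against 22.9 CPM with IgG (2.20, 1.32 to 3.88), and in the dividing cluster 116 CPM with anti-PD-1 against 90.7 CPM with IgG (1.28, 1.09 to 1.5).

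The other 5 genes were under the fold against IgG in all 3 comparisons. Ctla4 had 284 CPM in the combination library, 241 with anti-PD-1, 207 with anti-PSGL-1 and 217 with IgG, and Cd160 had 119, 82.7, 93.4 and 87.0 CPM. For both, the combination library was highest, at 1.31 and 1.37 times IgG. Cd200r1 had 21.0, 28.7, 26.8 and 19.4 CPM, with the 2 single antibodies above the other 2 libraries. Tigit had 12.7, 8.41, 14.8 and 11.8 CPM and was the only one of the 9 under IgG with anti-PD-1 by an interval that leaves out 1 (0.71, 0.53 to 0.94). That ratio was 0.91 with clusters weighing the same, 0.85 with each cell weighing the same and 0.63 without the naive-like cluster. Its intervals within the Gzmk, dividing, Serpine2 and Tff1 clusters all include 1. Cd101 was at 0.91 to 1.03 times IgG in these 3 comparisons, and with clusters weighing the same at 1.41 for the combination, 1.43 for anti-PD-1 and 1.27 for anti-PSGL-1. Pdcd1 itself had 642, 603, 430 and 463 CPM, which is 1.39, 1.30 and 0.93 times IgG.

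The combination was also set against each antibody alone. Against anti-PD-1, 1 of 9 genes was past the fold upward and 0 downward, beside 2.02% and 1.45% of all genes. That gene was Tigit, at 12.7 CPM in the combination against 8.41 CPM with anti-PD-1 (1.51, 1.20 to 1.91), a call that rested on the margin and was lost without the naive-like cluster (1.49). Cd160 was 1.44 times as high in the combination and Cd200r1 0.73 times. Against anti-PSGL-1, 2 of 9 genes were past the fold upward and 0 downward, beside 4.2% and 4.31% of all genes. Lag3 was 2.04 times as high (1.94 to 2.15), and 2.06 times with clusters weighing the same. Cd244 was 1.87 times as high (1.60 to 2.19), and 1.23 times with clusters weighing the same. Pdcd1 stood at 1.5, just under the fold.

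**Figure D2:**
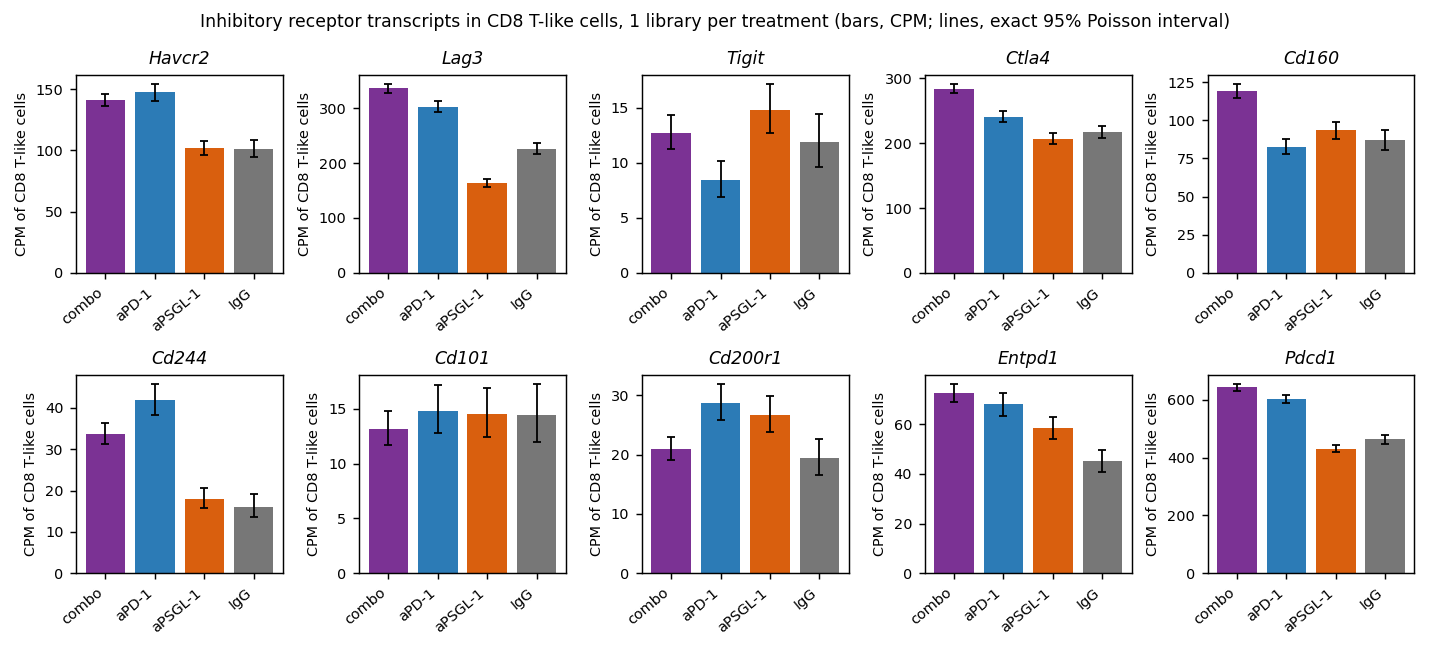
CPM of the 9 genes and Pdcd1 in CD8 T-like cells, 1 bar per library with its exact 95% Poisson interval. Lag3, Cd244 and Entpd1 are higher in the combination and anti-PD-1 libraries than in the IgG library, and Lag3 is lowest with anti-PSGL-1, at 164 CPM.

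Markers of other cells were measured in the same CD8 T-like cells. The 9 macrophage markers summed to 9.74 CPM in the combination library, 15.6 with anti-PD-1, 17.8 with anti-PSGL-1 and 14.3 with IgG, and 8 or all 9 were detected in each library. Macrophages also express Entpd1 and Cd244, and the part of these markers in their values was not tested. The 8 NK markers, all detected in each library, summed to 520, 454, 356 and 261 CPM, lowest with IgG as Entpd1 was, and higher in the 2 libraries where Cd244 was high. NK-like cells are a class with high Cd244, CD8 T cells also express some of the markers, and their part in the Entpd1 and Cd244 results was not tested. Erythroid markers were near 0 except in the IgG library, at 82.8 CPM.

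The CD8 T-like class held 6 clusters, and most of the 9 genes were lower in the naive-like cluster than in the others. Between the other clusters, the ranges over libraries of several genes overlapped, Ctla4 and Cd160 among them. The naive-like cluster, led by Dapl1, Tcf7 and S1pr1, made up 0.890% of CD8 T-like cells in the combination library, 6.52% with anti-PD-1, 11.5% with anti-PSGL-1 and 22.6% with IgG. The cluster led by Serpine2, Prf1, Gldc and Gzmb, genes of cytotoxic effector cells among them, made up 30.4%, 36.6%, 7.62% and 6.25%. The cluster led by Tff1, Ltf, Cxcr6 and Tox made up 11.2%, 12.9%, 36.6% and 35.4%, and the one led by Gzmd, Gzme and Gzmf 10.4%, 11.9%, 0.679% and 0.828%. The Gzmk cluster had 27.4%, 11.4%, 22.3% and 17.4% and the dividing cluster 17.6% to 21.2%.

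Havcr2 ran from near 0 in naive-like cells to its highest level in the granzyme-rich clusters. It had 0 to 1.22 CPM in the naive-like cluster, 22.9 to 50.2 in the Gzmk cluster, 75.5 to 116 in the dividing cluster, 129 to 147 in the Tff1 cluster and 163 to 228 in the Serpine2 cluster, ranges over the libraries that did not overlap. In the Gzmd cluster it had 225 CPM in the combination library and 227 with anti-PD-1, the 2 libraries with enough cells. Within the Serpine2 cluster the order of treatments was the reverse of that in the whole class, with 172 CPM in the combination library, 163 with anti-PD-1, 193 with anti-PSGL-1 and 228 with IgG. There the ratio to IgG was 0.76 (0.64 to 0.91) for the combination and 0.72 (0.60 to 0.86) for anti-PD-1.

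Cd244 and Entpd1 shared that gradient in part. Cd244 had at most 1.89 CPM in the naive-like cluster, 0 to 10.5 in the Gzmk cluster, 12.4 to 34.6 in the dividing cluster, 20.0 to 32.3 in the Tff1 cluster and 38.2 to 48.2 in the Serpine2 cluster. In the Gzmd cluster it had 46.1 CPM in the combination library and 67.2 with anti-PD-1. Its difference between treatments was plainest in dividing cells, at 29.5 CPM in the combination library, 34.6 with anti-PD-1, 16.8 with anti-PSGL-1 and 12.4 with IgG. The ratio to IgG there was 2.39 (1.66 to 3.51) for the combination and 2.80 (1.92 to 4.18) for anti-PD-1, against 1.09 (0.72 to 1.73) and 1.20 (0.79 to 1.92) in the Serpine2 cluster. Entpd1 had 0 to 2.84 CPM in the naive-like cluster and 25.6 to 45.5 CPM in the Gzmk cluster. In the Serpine2 cluster it was level across treatments, at 82.7, 73.9, 78.6 and 86.0 CPM, and in the Tff1 cluster it had 86.0, 93.3, 76.1 and 56.3 CPM, with IgG lowest.

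Lag3 differed between treatments inside clusters as well. In the Tff1 cluster it had 670 CPM in the combination library, 469 with anti-PD-1, 234 with anti-PSGL-1 and 352 with IgG. The Serpine2 cluster had 405, 367, 310 and 411 CPM, and the Gzmk cluster 171, 132, 60.2 and 75.3 CPM. In 3 of these 4 well-filled clusters (Gzmk, dividing and Tff1) the combination was highest and anti-PSGL-1 lowest. In the Serpine2 cluster anti-PSGL-1 was again lowest, at 0.76 times IgG (0.64 to 0.90), while the combination and IgG were alike (0.99, 0.87 to 1.12). Ctla4 differed from the gradient of Havcr2: it already had 198 to 309 CPM in the Gzmk cluster, within the 188 to 325 CPM of the Serpine2 cluster, and 38.9 to 52.4 CPM in naive-like cells. Cd101 was highest in the Tff1 cluster of the combination (32.0 CPM) and anti-PD-1 (31.4 CPM) libraries, against 17.0 CPM with anti-PSGL-1 and 21.5 CPM with IgG. In the Gzmd cluster it had 4.19 and 6.95 CPM in the combination and anti-PD-1 libraries. Cd160 in that cluster was 135 CPM in the combination library and 56.5 CPM with anti-PD-1.

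**Figure D3:**
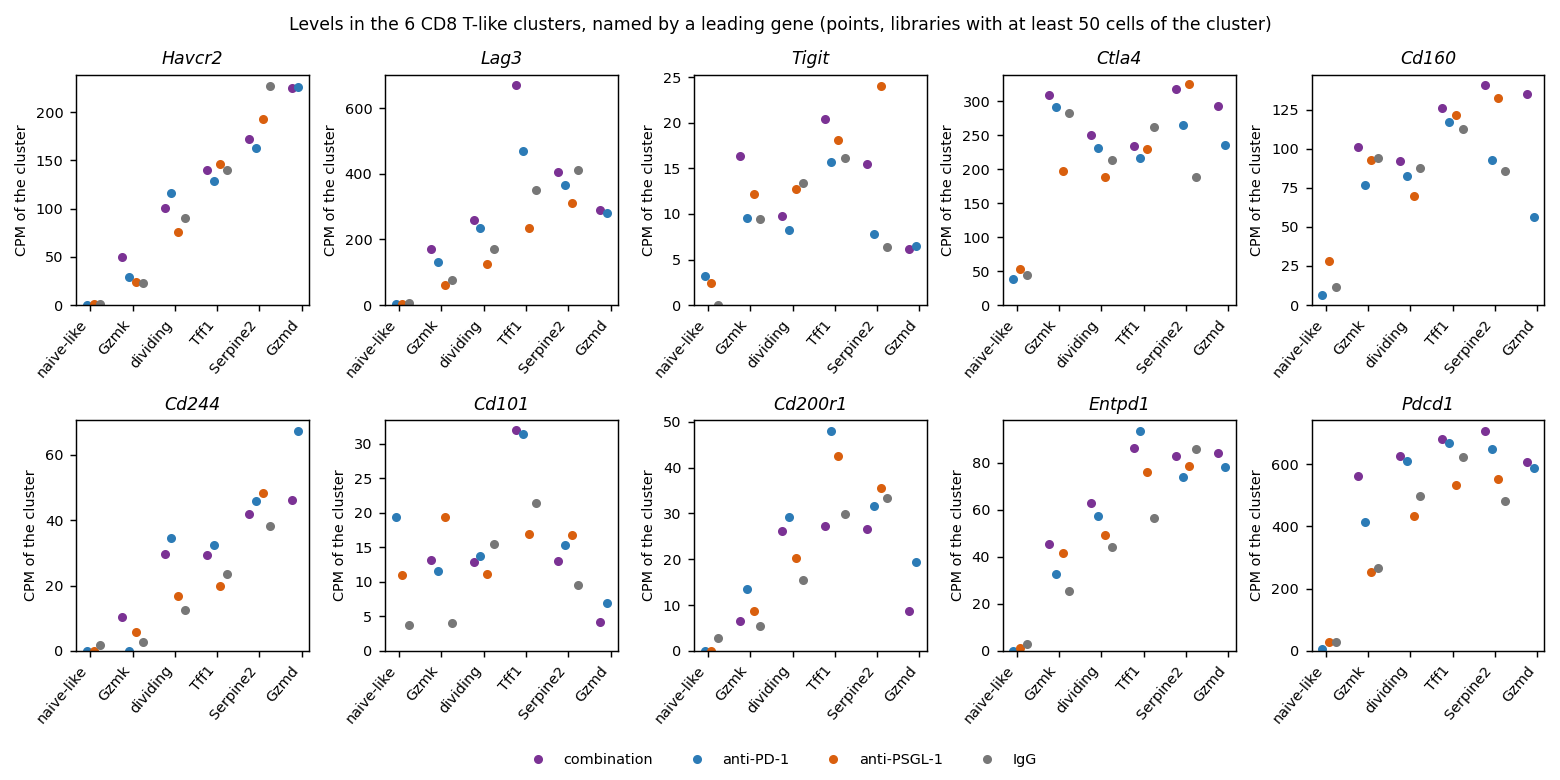
CPM of the 9 genes and Pdcd1 in the 6 CD8 T-like clusters (columns of each panel, named by state or by a leading gene), 1 point per library with at least 50 cells of the cluster. Havcr2 climbs from the naive-like to the Serpine2 cluster, whereas Ctla4 is already at 198 to 309 CPM in the Gzmk cluster.

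Per cell, CD8 T-like cells of the combination and anti-PD-1 libraries carried more of the 9 genes at a time. To set libraries of different depth side by side, each cell was thinned to 2000 UMIs, and the 22, 11, 35 and 57 shallower CD8 T-like cells of the combination, anti-PD-1, anti-PSGL-1 and IgG libraries were left out. The mean number of the 9 genes with a UMI was 1.47 in the combination library, 1.40 with anti-PD-1, 1.08 with anti-PSGL-1 and 1.02 with IgG. The share of cells with none of the 9 was 20.9%, 22.8%, 38.0% and 40.1%, and the share with 3 or more was 17.6%, 16.3%, 11.3% and 9.51%. The cells thus formed 2 pairs of libraries, with and without anti-PD-1. The naive-like cluster, which had a mean of 0.105 to 0.150 genes per cell, was the cluster with the fewest, and the Tff1 (1.49 to 1.81) and Serpine2 (1.60 to 1.85) clusters had the most.

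After thinning, Lag3 had a UMI in 41.7% of CD8 T-like cells in the combination library, 39.6% with anti-PD-1, 23.9% with anti-PSGL-1 and 27.8% with IgG, and without thinning in 79.3%, 78.6%, 51.7% and 48.4%. Without thinning, the order of anti-PSGL-1 and IgG was the other way round. Lag3 in macrophage- and monocyte-like cells, which should lack it, was seen in 0.585% of thinned cells. Ctla4 was seen in 39.5%, 35.2%, 29.5% and 27.2% of thinned CD8 T-like cells against 0.672% in macrophage- and monocyte-like cells, and Havcr2 in 20.0%, 21.5%, 16.2% and 14.7% against 0.366% of B-like cells. Cd244 was seen in 6.07%, 6.40%, 3.1% and 3.14%, against 0 of 273 B-like cells, which allows a share of up to 1.10%, taken as 3 cells of 273. Entpd1 was seen in 12.4%, 12.3%, 10.3% and 7.78% against 3.00% of NK-like cells. Median depths before thinning were 10923, 10151, 7455 and 4699 UMIs for the CD8 T-like cells of the 4 libraries, and 6125 for the macrophage- and monocyte-like, 2070 for the B-like and 3469 for the NK-like cells.

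CD8 T-like cells with a Pdcd1 UMI carried more of the 9 genes than those without one in each library. Pdcd1 was seen in 66.3% of thinned CD8 T-like cells in the combination library, 63.5% with anti-PD-1, 47.6% with anti-PSGL-1 and 45.0% with IgG, and in 0.696% of macrophage- and monocyte-like cells. The mean number of the 9 genes was 1.55 in Pdcd1-detected against 1.31 in undetected cells of the combination library, 1.57 against 1.10 with anti-PD-1, 1.38 against 0.81 with anti-PSGL-1 and 1.35 against 0.74 with IgG. The difference averaged 0.471 genes per cell (SD 0.167 over 4 libraries) and was positive in 4 of 4. An exact two-sided sign-flip permutation test over the 4 libraries gave p = 0.13, the smallest that 4 libraries allow. Conventional CD4 T-like, regulatory T-like and other T cells also had higher means with Pdcd1 in each library. In regulatory T-like cells the gap was smaller than in CD8 T-like cells. Their means were 1.76 against 1.56, 2.07 against 1.95, 1.52 against 1.39 and 1.51 against 1.49 in the same order of libraries.

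In CD8 T-like cells, the difference was smallest in the combination library and largest with IgG, and it varied between genes. In the combination library, Lag3 was seen in 44.5% of Pdcd1-detected and 36.1% of undetected cells, and in the IgG library in 38.6% and 19.0%. Entpd1 was seen in 12.4% and 12.3% with the combination, and in 12.1% and 4.29% with IgG. Cd101 was the only gene seen less often in Pdcd1-detected cells of any library (2.97% against 4.64% with anti-PD-1). Within clusters the difference held in the Gzmk cluster, where it was 0.384 to 0.523 genes per cell in 4 of 4 libraries. It was positive but smaller in the Serpine2 cluster (0.0349 to 0.290, 4 of 4), positive in 2 of 4 libraries in each of the dividing and Tff1 clusters, and negative in both libraries of the Gzmd cluster (-0.0562 and -0.0460). Apart from the Gzmk cluster, 8 of 14 values were positive. Thus cells with and without Pdcd1 differed less within most clusters than over the class. The class includes naive-like cells, with 6.48 to 29.2 CPM of Pdcd1, and their part in the difference was not tested.

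**Figure D4:**
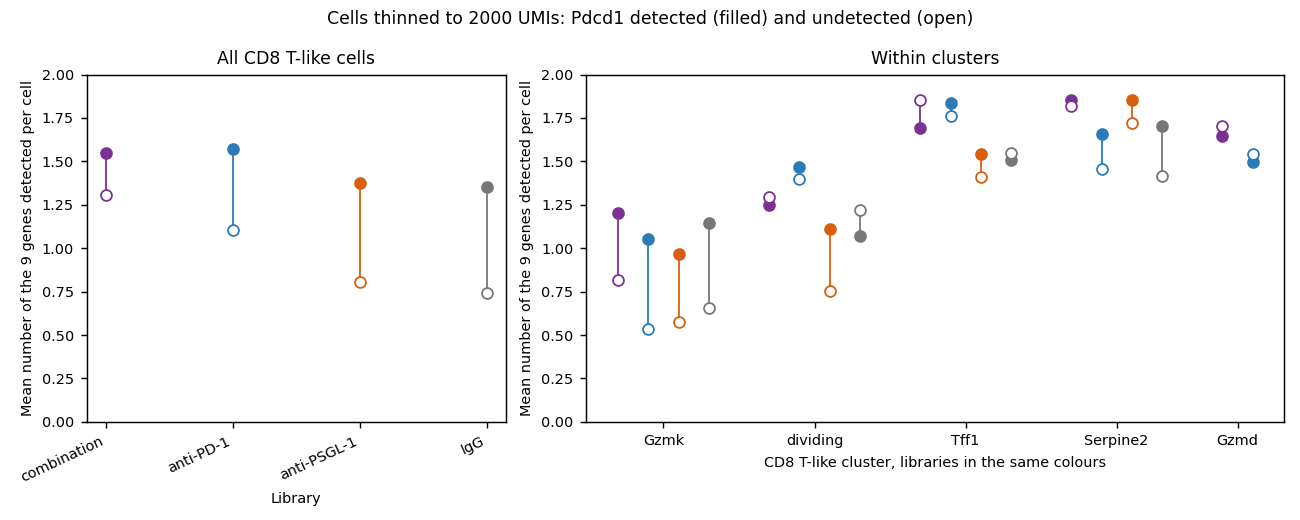
Mean number of the 9 genes with a UMI per CD8 T-like cell thinned to 2000 UMIs, in cells with (filled) and without (open) a Pdcd1 UMI, for each library over all CD8 T-like cells (left) and within clusters (right). The gap is present in all 4 libraries over the class, and inside clusters it is positive in every library for the Gzmk and Serpine2 clusters only.

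Pairs among the 9 genes were counted in the same thinned cells against the number that independent detection would give. Of 36 pairs, 22 had at least 5 expected cells in every library, and 12 of these 22 were seen together more often than that in all 4 libraries. Pairs of other genes were not counted, so no share over all genes stands beside the 12 of 22. Havcr2 and Cd244 were seen together 1.64 times as often in the combination library, 1.51 times with anti-PD-1, 1.39 times with anti-PSGL-1 and 1.70 times with IgG. Havcr2 and Lag3 had ratios of 1.35, 1.28, 1.78 and 1.69, and Lag3 and Entpd1 1.2, 1.04, 1.64 and 1.52. Ctla4 and Cd244 were close to independent, at 0.88, 0.96, 1.10 and 1.19. These ratios run over all CD8 T-like clusters, and the part of the naive-like cluster in them was not tested.

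Regulatory T-like cells carried more of most of these genes than conventional CD4 T-like cells of the same library. The regulatory T-like class had 76 cells in the combination library, 123 with anti-PD-1, 244 with anti-PSGL-1 and 475 with IgG, and expressed the transcription factor gene Foxp3 by which its clusters were named. Havcr2 was 61.7 CPM in regulatory against 9.44 CPM in conventional cells of the combination library, 111 against 5.52 with anti-PD-1, 68.0 against 10.5 with anti-PSGL-1 and 67.0 against 5.45 with IgG. The difference on the log2(CPM + 1) scale averaged 3.17 (SD 0.73, higher in 4 of 4 libraries), and that of Lag3 averaged 3.20 (SD 0.53, 4 of 4). Ctla4 (1.89), Cd200r1 (2.06), Entpd1 (1.80) and Cd160 (1.34) were also higher in 4 of 4 libraries. Each of these 6 genes reached p = 0.13 in the exact two-sided sign-flip permutation test, the smallest possible value, so none can pass 0.05, and adjusted over the 9 tests these were 0.188 (Benjamini-Hochberg). Cd200r1 was at 0 in the conventional cells with anti-PD-1, which widens its SD to 1.97. Tigit (1.43, higher in 3 of 4, exact p = 0.25) and Cd244 (0.52, 3 of 4, exact p = 0.5) were mixed, and Cd101 was lower on average (-0.44, higher in 1 of 4, exact p = 0.25). The contrast was not run over all genes, so no share of all genes stands beside the 6 of 9. Without thinning, Cd8a or Cd8b1 was detected in 21.4% and 42.5% of cells in the regulatory T-like clusters, against 10.7% in the conventional cluster. The part of CD8 T cell RNA in these differences was not tested. Marker gates leave out, among other rules, cells with a Cd8a or Cd8b1 UMI from both classes. With these gates in place of clusters, Cd160 and Cd244 turned to -1.06 and -1.02.

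**Figure D5:**
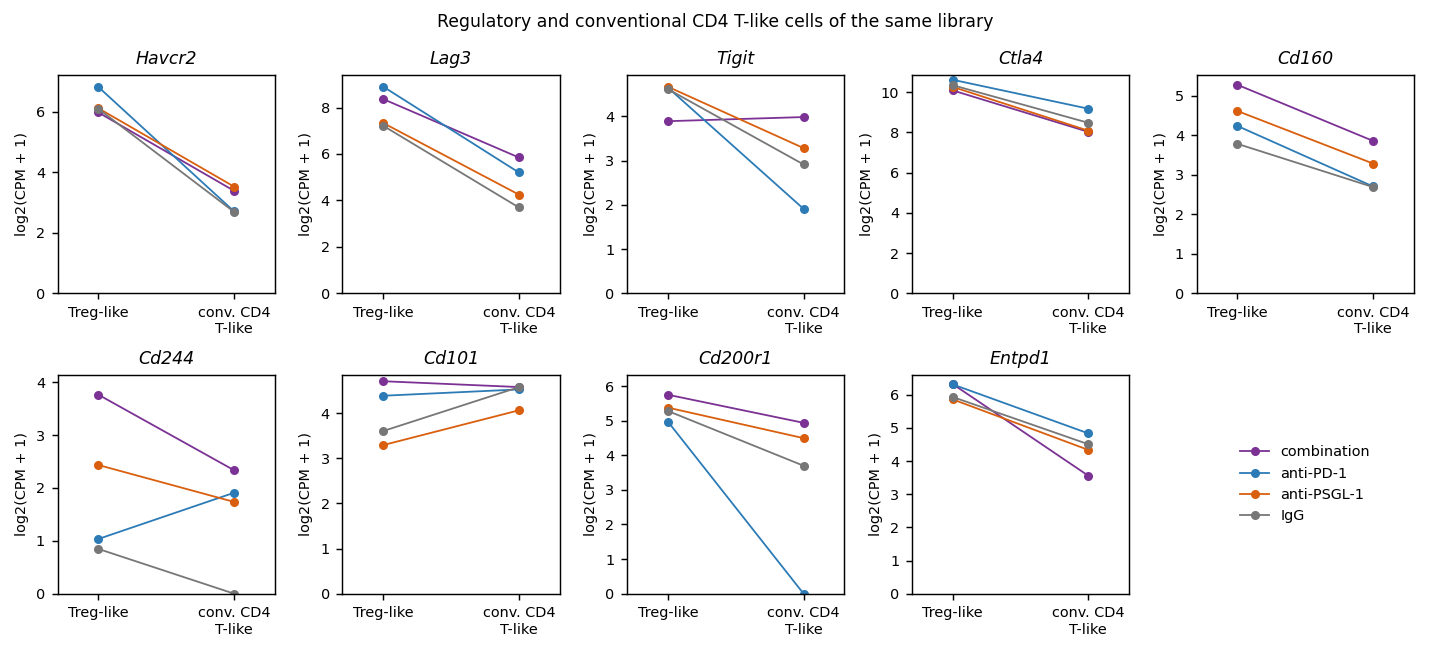
Levels, as log2(CPM + 1), of the 9 genes in regulatory T-like and conventional CD4 T-like cells, with a line for each library. Havcr2, Lag3, Ctla4, Cd160, Cd200r1 and Entpd1 are higher in the regulatory T-like cells of all 4 libraries, and Cd101 in 1 of 4.

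By treatment, regulatory T-like cells with anti-PD-1 had more Lag3 than those with IgG, at 476 against 148 CPM (3.23-fold, 2.81 to 3.71), and more Havcr2, at 111 against 67.0 CPM (1.66-fold, 1.29 to 2.13). Cd101, at 19.9 against 11.2 CPM, was also past the fold, with an interval that includes 1 (1.78, 0.94 to 3.31). So 3 of 8 measured genes were past it upward and 0 downward, beside 10.1% and 11.5% of all genes. The 8 NK markers summed to 221 CPM in these cells with anti-PD-1 (7 detected) against 40.7 CPM with IgG (8 detected), and their part in the result was not tested. With anti-PSGL-1, 1 of 8 was higher and 0 lower, beside 6.8% and 7.46%: Cd160, at 23.5 against 12.8 CPM (1.84, 1.15 to 2.97). The combination library had too few regulatory T-like cells for a ratio.

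The clusters grouped as other T cells, which included those led by Klra1, by cytokine genes, by heat shock genes, by Il17a and by interferon-induced genes, differed in makeup between libraries. The Klra1 cluster gave 47 of 156 cells in the combination library, 121 of 266 with anti-PD-1, 306 of 526 with anti-PSGL-1 and 380 of 587 with IgG, and its part in the values below was not tested. In that cluster Lag3 was 8.45 CPM with anti-PD-1, 8.72 with anti-PSGL-1 and 7.5 with IgG. Over all these clusters Lag3 had 149 CPM with the combination, 169 with anti-PD-1, 49.3 with anti-PSGL-1 and 73.6 with IgG. Havcr2 had 41.2, 55.1, 24.8 and 18.4 CPM and Entpd1 32.4, 28.8, 11.9 and 11.3 CPM. With anti-PD-1, 4 of 9 genes were past the fold upward and 0 downward, beside 12.2% and 14.4% of all genes. With the combination against IgG, 7 were higher and 1 lower, beside 11.9% and 14.4%, and of these 8 calls Tigit, Cd244 and Cd101 had intervals that include 1. With anti-PSGL-1, 0 were past the fold, beside 6.48% and 8.9%.

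Conventional CD4 T-like cells had few UMIs of most of these genes, so their ratios to IgG were loose. With the combination, 5 of 8 measured genes were past the fold upward and 1 downward, beside 14.9% and 13.8% of all genes. Lag3 was 56.6 against 12.0 CPM (4.73, 2.39 to 10.2) and Cd200r1 29.7 against 12.0 CPM (2.48, 1.15 to 5.65), and the intervals of Havcr2, Tigit, Cd160 and Entpd1 include 1. With anti-PD-1, 2 were higher and 2 lower, beside 18.9% and 18.2%. Lag3 was 35.9 against 12.0 CPM (2.99, 1.24 to 7.38) and Ctla4 579 against 356 CPM (1.63, 1.36 to 1.94), and the intervals of the lower genes, Tigit and Cd200r1, include 1. With anti-PSGL-1, 4 were higher and 0 lower, beside 9.98% and 11.2%, and all 4 intervals include 1.

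In NK-like cells, which rely on many inhibitory receptors of their own, Cd244, Cd160 and Entpd1 stayed within 1.5-fold of IgG in all 3 treated libraries. Lag3 was low but ordered, at 30.2 CPM with the combination, 9.84 with anti-PD-1, 14.7 with anti-PSGL-1 and 5.28 with IgG, and Ctla4 had 77.5, 34.9, 52.3 and 40.5 CPM. The combination was highest for both. With the combination, 3 of 8 measured genes were past the fold upward (Lag3, Ctla4 and Havcr2, the last from 1 UMI in IgG cells) and 1 downward, beside 8.74% and 15.6% of all genes. Of 7 measured genes with anti-PD-1, 1 was higher and 0 lower, beside 6.17% and 9.19%, and of 7 with anti-PSGL-1, 2 were higher and 0 lower, beside 9.08% and 10%. Macrophage- and monocyte-like cells, the largest myeloid class, kept Havcr2, Cd244, Cd200r1 and Entpd1 within 1.5-fold of IgG in all 3 treated libraries. Ctla4 in these cells was 1.96 CPM with the combination against 7.51 CPM with IgG (0.262, 0.162 to 0.411). It was the 1 of 5 measured genes past the fold downward, with 0 upward, beside 2.95% of all genes downward and 3.44% upward. This class also served as the background class of Ctla4 in thinned cells. Foxp3 had 0.227 CPM in it with the combination, 0.505 with anti-PD-1, 1.89 with anti-PSGL-1 and 2.06 with IgG. The 5 T cell markers summed to 28.6, 30.5, 32.0 and 37.2 CPM in the same order. The part of T cell RNA in this Ctla4 result was not tested. Under either single antibody 0 of 5 were past the fold, beside 6.56% and 5.88% upward and downward for anti-PD-1 and 1.66% and 1.92% for anti-PSGL-1. In cDC2-like cells Cd200r1 had 32.2, 31.8, 62.7 and 29.2 CPM, with anti-PSGL-1 alone high (2.15-fold over IgG, 1.74 to 2.67). It was the only 1 of 7 measured genes past the fold upward in that comparison, with 0 downward, beside 7.4% and 4.87% of all genes. With the combination 0 were higher and 2 lower (Lag3 and Ctla4), beside 8.63% and 8.57%, and with anti-PD-1 0 were higher and 2 lower (Ctla4 and Cd101), beside 8.72% and 9.57%.

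Genes that act with these receptors were followed in CD8 T-like cells from lists of ligands, partner receptors, adaptors, adenosine enzymes and exhaustion factors. Of the ligands, 5 of 10 measured were past the fold upward and 1 downward with the combination, beside 4.53% and 3.87% of all genes. The anti-PD-1 library had 4 higher and 0 lower, beside 4.37% and 5.01%, and the anti-PSGL-1 library none either way, beside 1.73% and 1.33%, all against IgG. The 4 that were higher with anti-PD-1 were Cd200 (23.3 against 12.4 CPM), Cd80 (16.8 against 7.34), Lgals3 (435 against 193) and Pdcd1lg2 (47.4 against 28.6), which encode ligands of CD200R1, of CTLA-4, of LAG-3 and of PD-1. With the combination, Cd274, the gene of PD-L1, was past the fold as well (44.5 against 24.9 CPM), and Pvr, a TIGIT ligand, was lower (7.77 against 12.1 CPM). Cd226, the costimulatory rival of TIGIT, had 157 CPM with the combination, 96.0 with anti-PD-1, 83.1 with anti-PSGL-1 and 65.0 with IgG.

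Among the other lists, Slamf6, a marker of progenitor exhausted cells, had 10.8 CPM with the combination, 9.06 with anti-PD-1, 23.3 with anti-PSGL-1 and 29.5 with IgG. Tcf7, which encodes the transcription factor of naive and progenitor cells, had 8.38, 11.2, 45.8 and 59.8 CPM. Both were low in the 2 libraries with anti-PD-1, as was the share of naive-like cells, which express Tcf7. Of 8 exhaustion factors, 2 were past the fold upward and 1 downward with the combination (Id2 and Tbx21, and Tcf7), and 1 upward and 2 downward with anti-PD-1 (Id2, and Eomes and Tcf7), beside the shares of all genes given for the ligands. Nt5e, which encodes the enzyme CD73 that acts after CD39, had 5.80 CPM with the combination, 8.49 with anti-PD-1, 9.38 with anti-PSGL-1 and 13.7 with IgG, opposite in direction to Entpd1. Of 10 measured adaptors and phosphatases, only Ptpn6, the gene of SHP-1, was past the fold, with anti-PD-1 alone (139 against 77.3 CPM). With anti-PSGL-1 no gene of any of the 5 lists was past the fold.

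As a description, the genes whose levels most resembled each of the 9 were taken over 41 sums of a class in a library, among 5388 candidates. The sums share libraries and depth, so the correlations carry no test. Ctla4 ran closest to Icos, a costimulatory receptor gene (Pearson r = 0.93), BC021614 (0.90) and Bcl11b (0.89). Lag3 ran closest to Cd8b1 (0.91), Pdcd1 (0.87) and Cd8a (0.86), and Tigit to Nkg7, Cd27 and Tox (all 0.92). Cd160 ran with Dapk2, Nrgn and Klrc1 (all 0.91), and Havcr2 with Slmo2 (0.85), Mt1 (0.83) and Vamp8 (0.82). Cd244 had weaker partners, Fcer1g (0.76) and Itgax (0.75), as had Cd200r1, led by Gapdh and Hip1 (both 0.75). Entpd1 ran closest to Slc16a3, a lactate transporter gene (0.86), and Cd101 to Dgat1 (0.83).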

How the data were processed

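Libraries were made with the 10x Genomics Chromium single-cell system, per the labels' protocols. The matrices deposited by the authors hold raw UMI counts, not normalized. Per the submitters' processing notes, Cell Ranger 3.1.0, the mm10 genome and FastQC were used. The library chemistry is not given in the sources used here. Treatment labels defined the groups.

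Filters kept cells with 300 or more genes, 10% or less mitochondrial UMIs and no more than 60000 UMIs. Scrublet's own threshold called 42, 84, 0 and 1 cells in the combination, anti-PD-1, anti-PSGL-1 and IgG libraries, which was taken as a failure. Instead the 154, 219, 377 and 717 cells with the highest scores were removed (0.8% per 1000 cells). After scaling to 10000 per cell and log transformation, 2006 variable genes, 30 principal components and 20 neighbours entered Leiden clustering at resolution 1 (seed 0, Python 3.11.15, scanpy 1.11.5, leidenalg 0.10.2, numpy 2.4.6, scipy 1.17.1). This gave 24 clusters, and a second round on T and NK cells gave 19. The 9 genes and Pdcd1 were left out of both rounds. Clusters were named from marker lists, and names rebuilt here may differ from the study's.

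For each class in a library, the UMIs of its cells were added up and divided by the class total (CPM, computed here). Levels needed 50 cells and ratios 100 cells in both libraries. Intervals are exact at 95%: Poisson for levels, conditional for ratios, binomial (Clopper-Pearson) for shares. No p-value was computed between treatments. Within libraries, an exact sign-flip permutation test used the 4 libraries as units. Named genes are all 9 in every class, list genes past 1.5-fold or of highest level, and the 3 genes of most similar level among those at 50 CPM or more in 1 sum of a class in a library. The script for ratios was tested on simulated data. Alternatives covered doublets, filters, gates, weighting, scaling, thinning, the fold and left-out clusters. The 9 genes and the lists were chosen with earlier results of these data known. Promoter sequences are from RefSeq.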

Additional observations from a re-analysis of the deposited data

Results flagged for a closer look

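In 3 cases a gene was higher than in the IgG library in 1 class and lower in another, with intervals on either side of 1, and the difference between the classes was not tested. Only the 9 genes were searched, and the most extreme class each way is given. The share of all genes with such a split was not computed. With anti-PD-1, Ctla4 was 1.63 times IgG in conventional CD4 T-like cells (579 against 356 CPM) and 0.544 times IgG in cDC2-like cells (41.1 against 75.6 CPM). With the combination, Ctla4 was 2.04 times IgG in the other T clusters (251 against 123 CPM) and 0.0574 times IgG in cDC2-like cells (4.34 against 75.6 CPM). With the combination, Lag3 was 5.73 times IgG in NK-like cells (30.2 against 5.28 CPM) and 0.270 times IgG in cDC2-like cells (3.72 against 13.8 CPM).

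In the cDC2-like cells, the 5 T cell markers, all detected in each library, summed to 29.1 CPM in the combination library, 112 with anti-PD-1, 249 with anti-PSGL-1 and 224 with IgG, and Foxp3 had 1.24, 5.37, 21.4 and 14.0 CPM. Ctla4 in those cells ran at 4.34, 41.1, 70.1 and 75.6 CPM. The part of T cell RNA in these cDC2-like values was not tested.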

How the results depend on the processing

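Ratios were varied in CD8 T-like, regulatory T-like, NK-like and macrophage- and monocyte-like cells only. Those in conventional CD4 T-like, other T and cDC2-like cells were not varied. Of 807 single-gene ratios under the alternatives, 739 stayed inside the counting interval and 68 moved. Of the ratios past the fold, 0 changed direction, while 51 ratios under it crossed 1, 14 of them beyond the interval. With the 4 CD8 clusters named above weighing the same, and the naive-like and Gzmd clusters left out, Havcr2 crossed to 0.91 (anti-PD-1) and 0.96 (combination) times IgG. Cd101 crossed to 1.41 (combination). Under the alternatives, shares of all genes past the fold were not computed, so the counts below have none beside them. The number of the 9 genes past the fold in CD8 T-like cells changed as follows. For anti-PD-1 against IgG (2) it was 4 with each cell weighing the same, 1 when scaled without mitochondrial, ribosomal protein and granzyme genes, 0 with CD8 clusters weighing the same, 6 at a lower threshold of 25% above and 1 at a fold of 2. For anti-PSGL-1 against IgG (0) it was 1 without cells with Mki67 or Top2a and 3 at 25% above. For the combination against IgG (2) it was 5 without cells with Mki67 or Top2a, 1 without the naive-like cluster, 0 with clusters weighing the same, 6 at 25% above and 1 at 2. For the combination against anti-PD-1 (1) it was 2 with each cell weighing the same, 2 without cells with Mki67 or Top2a, 0 when so scaled, 0 without the naive-like cluster, 0 with clusters weighing the same, 3 at 25% above and 0 at 2. For the combination against anti-PSGL-1 (2) it was 1 with clusters weighing the same, 6 at 25% above and 1 at 2. The causes were not tested, except that the folds set the last counts by construction. With marker gates, the regulatory minus conventional difference reversed for Cd160 (-1.06) and Cd244 (-1.02). The Pdcd1 difference in genes per cell was 0.603, 0.797, 1.03 and 1.22 at 4000 UMIs in the combination, anti-PD-1, anti-PSGL-1 and IgG libraries, 2.76, 3.53, 2.53 and 2.50 unthinned, and at 1000 UMIs 0.217 for anti-PD-1 and 0.249 for anti-PSGL-1. It grows with the UMIs left per cell and was positive in each. Adding 3 other T clusters to the CD8 class was chosen after seeing the data and changed no count by more than 1.5 times.

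No paired analysis was possible because each treatment has 1 library and the labels give no shared replicate numbers. Leaving out a replicate was not possible for the same reason. Depth limits values that rest on few UMIs, such as those of Cd244 in conventional CD4 T-like cells.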
